A study of Rattus norvegicus with 12 samples.

Results

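Expression of 4 cell cycle genes was followed across agonist treatments in iAMs, a line of conditionally immortalized neonatal rat atrial myocytes. The genes are Ccnd1 (ENSRNOG00000020918), Cdk1 (ENSRNOG00000000632), Mki67 (ENSRNOG00000028137) and Cdkn1a (ENSRNOG00000000521), chosen by identifier as cell cycle genes, 4 of the 19775 genes in the count table. The files list genes by Ensembl identifier only, and the pairing of these identifiers with their symbols was not tested.

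The study asked how EF-1, a small-molecule agonist of the receptor ERBB4, acts on cardiomyocytes beside NRG1 (neuregulin-1), the natural ligand. The cells carry a lentiviral SV40 large T antigen under doxycycline control, were selected with puromycin, and were moved to medium without doxycycline to differentiate. After 9 days in that medium they received PBS (vehicle), 0.1 µM NRG1 or 32 µM EF-1 for 16 h. The DMSO share of the medium was the same in each group. Polyadenylated RNA gave 12 sequencing libraries, 4 for each treatment, numbered 1 to 4 for vehicle, 5 to 8 for NRG1 and 9 to 12 for EF-1. All groups share the wild-type genotype, the line and the T antigen construct. The line limits the model, since large T antigen binds p53 and the retinoblastoma proteins and so acts on the regulators that control these genes, and its remaining level after doxycycline removal was not analysed here. Markers of atrial myocytes and other cell types were not checked, for lack of gene names. The study calls the replicates of this experiment biological. The labels do not say how the cultures of a group were kept apart, and the p-values measure the spread between these libraries.

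Cells commit to division in G1, when D-type cyclins bind CDK4 or CDK6 and the resulting kinases phosphorylate the retinoblastoma protein, which frees E2F factors to switch on genes of DNA replication. CDK1 with its B-type cyclins then drives entry into mitosis, while inhibitors such as p21 restrain the kinases. Rat cardiomyocytes largely leave the cycle soon after birth, and signalling by NRG1 through ERBB4 and ERBB2 is known as a growth and survival signal for them.

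The deposited values are estimated counts per gene, given below as counts and as CPM, counts per 1000000 counts of the library total. Library totals were 18121643, 27220266, 12216228 and 19280141 counts for vehicle. They were 24397526, 27467198, 27099847 and 21384901 for NRG1, and 14442672, 13763279, 17149059 and 16314633 for EF-1. Every NRG1 library was thus deeper than every EF-1 library. Of the 4 genes, 3 passed the filter on low counts, along with the other genes that made up the 10997 tested, and Cdk1 did not.

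Ccnd1 encodes cyclin D1, the G1 cyclin whose synthesis is known to follow mitogenic signals. Its counts were 172, 192, 117 and 155 in vehicle libraries, or 9.49, 7.05, 9.58 and 8.04 CPM. With NRG1 they were 3072, 2102, 3541 and 1771, or 126, 76.5, 131 and 82.8 CPM. With EF-1 they were 199, 310, 262 and 165, or 13.8, 22.5, 15.3 and 10.1 CPM. The 3 groups did not overlap on the CPM scale, with vehicle lowest, EF-1 in between and NRG1 highest, and within the NRG1 group libraries 5 and 7 lay above libraries 6 and 8.

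Group means were 8.54 ± 1.22 CPM for vehicle, 104 ± 28.3 CPM for NRG1 and 15.4 ± 5.21 CPM for EF-1 (SD, n = 4 each). Ccnd1 rose with NRG1, with a log2 fold change of 3.58 (95% interval 3.01 to 4.15, standard error 0.26, adjusted p = 8.57e-07, edgeR's quasi-likelihood test with Benjamini-Hochberg adjustment), or 12.0-fold. That fold change had rank 36 from the top among the 10997 tested genes. In EF-1 vs vehicle the log2 fold change was 0.89 (95% interval 0.34 to 1.43, standard error 0.25, adjusted p = 0.220, edgeR's quasi-likelihood test with Benjamini-Hochberg adjustment), which did not pass the threshold of 0.05 although 4 of 4 EF-1 libraries lay above every vehicle library. In the direct comparison Ccnd1 was lower with EF-1 than with NRG1, at a log2 fold change of -2.70 (95% interval -3.24 to -2.15, adjusted p = 5.61e-06, same edgeR test).

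The EF-1 value of Ccnd1 varied with the library and with the treatment of transcript length. EF-1 library 10 had the highest Ccnd1 of its group and the lowest length ratio, -0.223. This ratio is the mean over transcripts of the log2 of effective over annotated length. Library 12 had the lowest Ccnd1 and the highest ratio, -0.0755. Libraries 9 and 11 had ratios of -0.163 and -0.171, and the vehicle libraries lay between -0.150 and -0.0731. An effective length is a transcript's length weighted by the bias models of the quantification, so it can exceed the annotated length, and the deposited gene counts are scaled with it. For the longer of the 2 Ccnd1 transcripts, of 3809 bases, it ran from 4120 to 8310. With this ratio as a covariate the log2 fold change of EF-1 vs vehicle was 0.42 (adjusted p = 0.568, edgeR). Without EF-1 library 12 it was 1.06 (adjusted p = 0.0220, edgeR), in a fit that called 3207 genes where the fit of all libraries called 3, so the gain is not particular to Ccnd1. Every EF-1 library left in that fit had a lower length ratio than every vehicle library. Treatment and length ratio cannot be told apart there. DESeq2 on all libraries gave 0.90 (adjusted p = 0.0395). Over all alternatives the adjusted p ran from 0.0220 to 0.700.

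**Figure D1:**
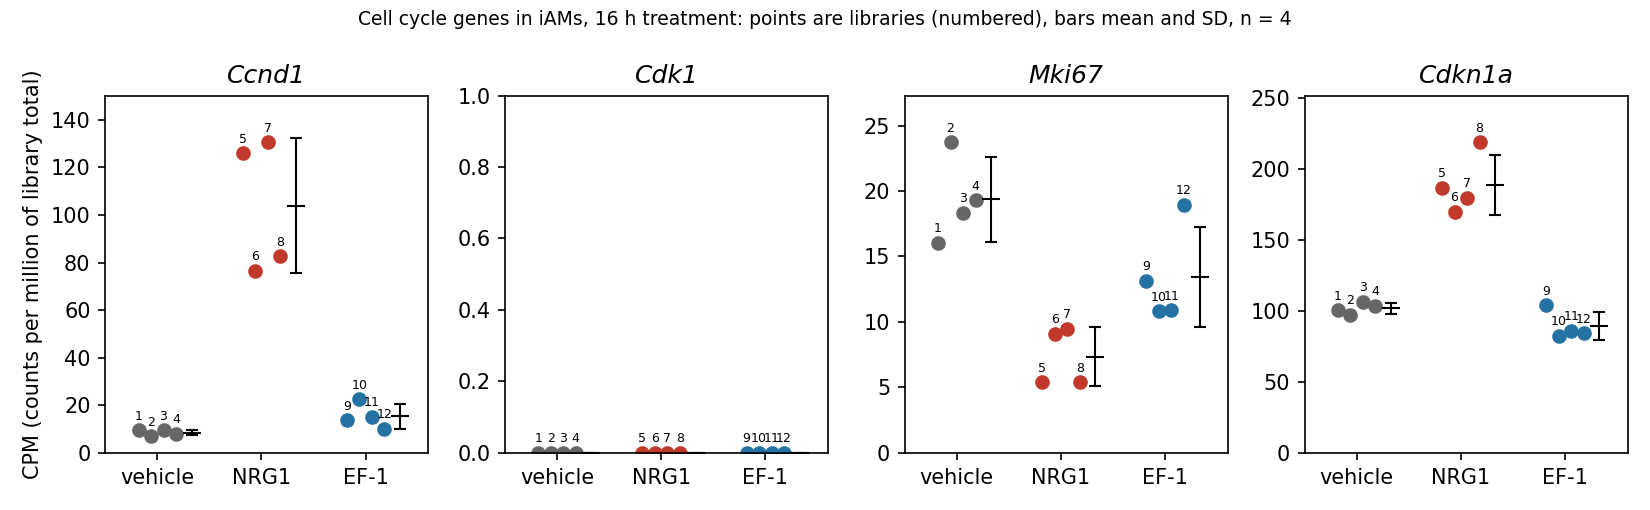
CPM (vertical axis, counts per 1000000 of the library total) for Ccnd1, Cdk1, Mki67 and Cdkn1a in vehicle, NRG1 and EF-1 libraries, with points for single libraries labelled by number and bars for the mean and SD (n = 4). Ccnd1 and Cdkn1a stand highest and Mki67 lowest in the NRG1 libraries, Cdk1 is at 0 in all libraries, and EF-1 library 12 lies among the vehicle libraries for Mki67. Whether transcripts of Cdk1 were in the reference was not tested.

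Reads assigned to the transcripts of Ccnd1, before any length scaling, gave a narrower EF-1 group. The transcript tables do not pair transcripts with genes, so rows were matched by arithmetic, since a gene's deposited count follows from the TPM (a transcript level per length, scaled to 1000000 over each library) of its transcripts. The Ccnd1 counts were matched within 0.360% in every library by the sum of ENSRNOT00000028411.3 (3809 bases) and ENSRNOT00000088588.1 (3057 bases), where the next best partner of the longer row missed by 9.23%. Both rows together held 8.21, 8.95, 9.55 and 9.02 reads per 1000000 transcript reads in vehicle libraries. NRG1 libraries held 111, 74.6, 105 and 80.9, and EF-1 libraries 10.6, 15.9, 13.0 and 12.3. The order of the groups was as on the CPM scale, again with no overlap, and the EF-1 mean was 13.0 ± 2.19 such reads against 8.93 ± 0.549 for vehicle (SD, n = 4 each). The log2 fold change of EF-1 vs vehicle on these reads was 0.59 (adjusted p = 0.244, edgeR), a setting chosen after the data had been seen.

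The longer transcript held most of the Ccnd1 level in every library. The shorter one made up 0%, 21.4%, 0% and 20.4% of the gene's TPM in vehicle libraries. It made up 8.16%, 15.1%, 7.11% and 15.6% with NRG1, and 6.05%, 8.42%, 0% and 16.6% with EF-1. The ranges of the groups overlapped, and in the vehicle and EF-1 libraries the shares rest on at most 35.7 estimated reads. The shorter transcript had its highest shares in vehicle libraries 2 and 4, NRG1 libraries 6 and 8 and EF-1 library 12. The same libraries had the highest length slopes, the trend of a library's reads with transcript length against the average library. These slopes were 0.191 and 0.135, 0.168 and 0.144, and 0.122 in that order, and 0.0705 or lower in all other libraries. Vehicle and NRG1 each held libraries of both kinds, whereas library 12 was the only EF-1 library with a high slope. Whether this imbalance bears on the comparisons was not tested.

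Cdk1, the kinase of mitotic entry, was listed at 0 counts in all 12 libraries, as were 4850 of the 19775 genes. A count of 0 allows up to 3 counts, which is 0.109 CPM in the deepest library (NRG1 library 6) and 0.246 CPM in the shallowest (vehicle library 3), or 0.0126 CPM over all 238857393 counts. These limits cover counting error only, and they hold only if transcripts of this gene were in the reference that reads were assigned to, which was not tested. No fold change is given for Cdk1.

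Mki67 encodes Ki-67, a nuclear protein of cycling cells that coats mitotic chromosomes and is lost in resting cells. Its counts were 291, 646, 224 and 372 in vehicle libraries, or 16.1, 23.7, 18.3 and 19.3 CPM. With NRG1 they were 132, 250, 257 and 115, or 5.41, 9.10, 9.48 and 5.38 CPM. With EF-1 they were 190, 149, 187 and 309, or 13.2, 10.8, 10.9 and 18.9 CPM. The NRG1 libraries lay below all others, 3 of 4 EF-1 libraries lay below every vehicle library, and EF-1 library 12 lay within the vehicle range.

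Mki67 fell with NRG1 from 19.4 ± 3.22 to 7.34 ± 2.26 CPM (SD, n = 4 each), or -1.43 in log2 fold change (95% interval -1.93 to -0.94, standard error 0.23, adjusted p = 0.000394, edgeR's quasi-likelihood test with Benjamini-Hochberg adjustment). NRG1 libraries thus held 0.371 times the vehicle level. In bulk RNA, fewer cells that express a gene and less of its RNA per cell cannot be told apart. With EF-1 the mean was 13.5 ± 3.81 CPM (SD, n = 4), which against vehicle is -0.52 in log2 fold change (95% interval -1.01 to -0.03, adjusted p = 0.239, edgeR's quasi-likelihood test with Benjamini-Hochberg adjustment). This value depended in part on single libraries. Without EF-1 library 12 it was -0.72 (adjusted p = 0.0340, edgeR), in the same fit that called 3207 genes, where treatment and length ratio cannot be told apart. Without vehicle library 2, the highest of its group, it was -0.39 (adjusted p = 0.523, edgeR). With the length ratio as a covariate it was -0.29, and with 1 surrogate variable -0.26. Over the alternatives the adjusted p ran from 0.0340 to 0.820. Mki67 was higher with EF-1 than with NRG1 in 4 of 4 libraries (log2 fold change 0.91, 95% interval 0.41 to 1.41, adjusted p = 0.00713, edgeR's quasi-likelihood test with Benjamini-Hochberg adjustment).

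Cdkn1a encodes p21, a target of p53 that inhibits cyclin-dependent kinases and also helps D-type cyclins to assemble with their partners. Its counts were 1824, 2655, 1301 and 2001 in vehicle libraries, or 101, 97.5, 106 and 104 CPM. With NRG1 they were 4559, 4673, 4873 and 4686, or 187, 170, 180 and 219 CPM. With EF-1 they were 1507, 1139, 1479 and 1377, or 104, 82.8, 86.2 and 84.4 CPM. All NRG1 libraries lay above all others, and EF-1 libraries 10, 11 and 12 lay below every vehicle library while EF-1 library 9 lay within their range.

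Cdkn1a rose with NRG1 from 102 ± 3.88 to 189 ± 21.2 CPM (SD, n = 4 each), or 0.86 in log2 fold change (95% interval 0.65 to 1.06, standard error 0.10, adjusted p = 2.60e-05, edgeR's quasi-likelihood test with Benjamini-Hochberg adjustment), or 1.81-fold. The EF-1 mean was 89.4 ± 10.04 CPM (SD, n = 4), which against vehicle is -0.18 in log2 fold change (95% interval -0.38 to 0.03, standard error 0.10, adjusted p = 0.268, edgeR's quasi-likelihood test with Benjamini-Hochberg adjustment). Against NRG1 it was lower with EF-1 at a log2 fold change of -1.03 (95% interval -1.24 to -0.82, adjusted p = 5.61e-06, same edgeR test).

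Read together, the cyclin and the inhibitor rose with NRG1 while the marker of cycling cells fell. In NRG1 vs vehicle, 2 of the 3 tested genes were called higher, where 15.9% of all tested genes were, and 1 was called lower, where 15.3% were. The groups did not overlap for 3 of 3 genes, and for 36.9% of all tested genes. The median log2 fold change over all tested genes was -0.01, and the median size of the change was 0.28.

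In EF-1 vs vehicle, edgeR called 0 of the 3 genes higher and 0 lower, against 0.00909% and 0.0182% of all tested genes. At an unadjusted p under 0.05 there were 2 of the 3, Ccnd1 and Mki67, where 2256 of all 10997 tested genes passed it. DESeq2 called 1, Ccnd1, among 175 genes in all. The study called more genes in this comparison than either of these fits. It used DESeq2 with the sequencing run as a covariate, and a fold threshold as well. Without EF-1 library 12, edgeR called 2 of the 3, Ccnd1 and Mki67, among 3207 genes in all, so the background share rests on this library too. In that fit treatment and length ratio cannot be told apart. The groups did not overlap for 1 of 3 genes, Ccnd1, and for 4.42% of all tested genes. In EF-1 vs NRG1, 1 gene was called higher and 2 were called lower, where 20.8% and 21.0% of all tested genes were, and the groups did not overlap for 3 of 3 genes and for 33.1% of all. The comparisons with vehicle share its 4 libraries, and those with NRG1 share its 4, so the counts are not independent of each other. With 3 genes, these counts say nothing of cell cycle genes as a class, and other cell cycle genes were not analysed here, for lack of gene names.

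**Figure D2:**
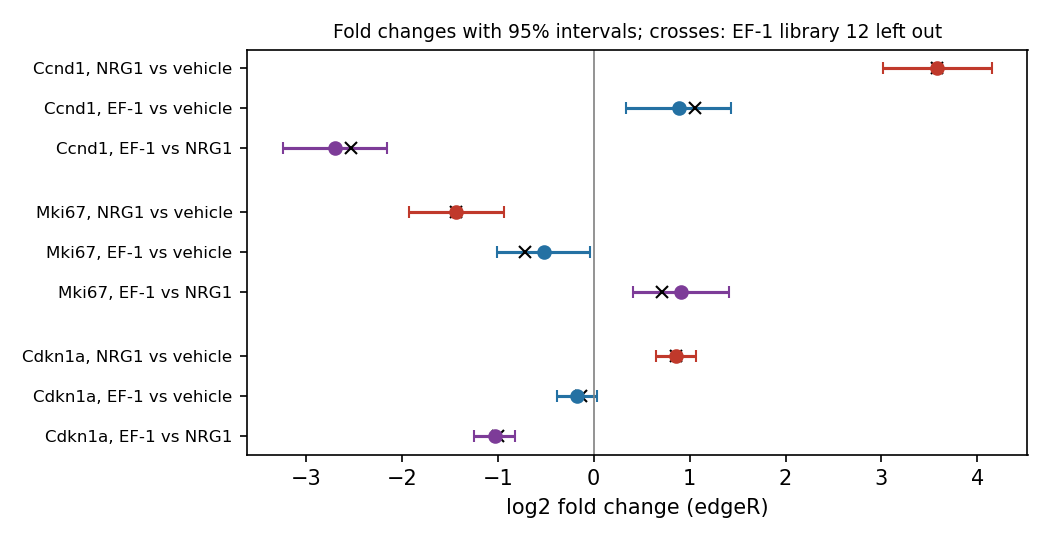
Log2 fold changes (horizontal axis) of Ccnd1, Mki67 and Cdkn1a in the 3 comparisons, with points for the edgeR estimate from all 12 libraries, bars for its 95% interval and crosses for the estimate without EF-1 library 12. The NRG1 vs vehicle intervals lie away from 0 for all 3 genes, and leaving out the library moves Ccnd1 from 0.89 to 1.06 and Mki67 from -0.52 to -0.72 in EF-1 vs vehicle.

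Levels of different genes were compared per length, as TPM. Mki67 and Cdkn1a each matched a single transcript, ENSRNOT00000038176.5 (9880 bases, within 0.256%) and ENSRNOT00000091731.1 (825 bases, within 0.255%). In vehicle libraries the level of Cdkn1a was 150 ± 4.19 TPM, that of Mki67 1.98 ± 0.349 TPM and that of Ccnd1 1.70 ± 0.221 TPM (SD, n = 4 each), and the Mki67 and Ccnd1 libraries overlapped. With NRG1 the levels were 284 ± 29.8 TPM for Cdkn1a, 21.2 ± 5.46 TPM for Ccnd1 and 0.774 ± 0.260 TPM for Mki67, with no overlap. With EF-1 they were 126 ± 23.7, 2.90 ± 0.852 and 1.33 ± 0.462 TPM in the same order. The inhibitor thus stood highest in each group. Ccnd1 and Mki67 lay close together with vehicle, and Ccnd1 lay above Mki67 in every NRG1 and EF-1 library. In EF-1 library 12 the gap was small, at 2.04 TPM for Ccnd1 and 1.95 TPM for Mki67. This order also rests on the effective lengths, which for the longer Ccnd1 transcript ran from 4120 to 8310 between libraries.

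A ratio of counts within a library does not depend on how libraries are scaled to each other, but it still carries the scaling of each gene's counts by effective length. The log2 ratio of Ccnd1 to Cdkn1a was -3.40, -3.79, -3.47 and -3.69 in vehicle libraries. It was -0.57, -1.15, -0.46 and -1.40 with NRG1, and -2.92, -1.88, -2.49 and -3.06 with EF-1. All EF-1 libraries lay between the vehicle and the NRG1 libraries. The mean was higher than with vehicle by 2.69 for NRG1 and by 1.00 for EF-1, and EF-1 differed from NRG1 by -1.69. Each of these differences had p = 0.0286, the smallest that the 70 assignments of 4 against 4 libraries allow, and adjusted p = 0.0343 over 6 tests (two-sided exact permutation test). On transcript reads the differences were 2.51, 0.73 and -1.78 in the same order (adjusted p = 0.0343 each, same test). The length ratio was not used as a covariate for these differences.

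The log2 ratio of Mki67 to Cdkn1a was -2.65, -2.04, -2.54 and -2.43 in vehicle libraries. It was -5.10, -4.22, -4.24 and -5.34 with NRG1, and -2.98, -2.93, -2.98 and -2.15 with EF-1. The NRG1 libraries lay below all others, and EF-1 library 12 lay within the vehicle range. NRG1 differed from vehicle by -2.32 and EF-1 from NRG1 by 1.97 (adjusted p = 0.0343 each, two-sided exact permutation test). EF-1 and vehicle differed by -0.35 (p = 0.200 in a two-sided exact permutation test, adjusted p = 0.200), with an SD of 0.41 among the EF-1 libraries that library 12 widened. Without EF-1 library 12 the difference was -0.55, with the remaining EF-1 libraries below every vehicle library (adjusted p = 0.0571, two-sided exact permutation test, a design of 4 against 3 that cannot pass 0.05). Without vehicle library 2 it was -0.23. This ratio took the place of ratios with Cdk1, which its counts of 0 left without a value.

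Across the 12 libraries, Pearson's r of log2 CPM was -0.91 between Ccnd1 and Mki67, 0.88 between Ccnd1 and Cdkn1a and -0.81 between Mki67 and Cdkn1a. Spearman's rho was -0.92, 0.50 and -0.56 in the same order. The NRG1 libraries lie apart from the rest for all 3 genes, which weighs in these values. With each group centred on its mean, Pearson's r was -0.47, -0.09 and -0.62. The last value does not describe each group, since EF-1 library 9 had the highest Cdkn1a of its group and more Mki67 than libraries 10 and 11. The libraries share depth and the length ratio with these values, and the part of either was not tested.

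The genes whose pattern was most like that of each member over the 12 libraries are given by identifier. For Ccnd1 it was ENSRNOG00000006094 (r = 0.99, and 0.87 with groups centred), at 87.3 ± 9.79 CPM with vehicle, 307 ± 36.7 with NRG1 and 126 ± 18.1 with EF-1 (SD, n = 4 each). For Mki67 it was ENSRNOG00000011774 (r = 0.98, and 0.93 with groups centred), at 21.0 ± 2.34, 9.84 ± 2.48 and 14.2 ± 1.74 CPM in the same order. For Cdkn1a it was ENSRNOG00000011175 (r = 0.98, and 0.57 with groups centred), at 486 ± 34.2, 792 ± 27.5 and 457 ± 36.5 CPM. Each was picked as the highest of 10996 values of r on these same libraries, which also sets its centred r, and many others came close, with r above 0.9 for 344 genes with Ccnd1, 119 with Mki67 and 401 with Cdkn1a.

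Promoter sequence was examined because genes of the late cell cycle are known for paired CHR and CCAAT elements. RefSeq windows on the GRCr8 build, from 250 bases before to 50 bases after the gene start, were matched by symbol for 3 of the 4 genes, Cdk1, Mki67 and Cdkn1a. Exact matches on both strands were sought for the CHR (TTTGAA), the CCAAT box (CCAAT), E2F sites (TTTGGCGC and TTTCCCGC), the CRE (TGACGTCA), the GC box (GGGCGG) and the TATA box (TATAAA). The Mki67 window held 2 CHR, 4 CCAAT and 7 GC box matches, and the Cdk1 window 2 CHR, 3 CCAAT and 1 GC box match. Of all 33469 windows, 18.3% held a CHR, 37.5% a CCAAT box, 33.1% a GC box and 14.2% a TATA box. The E2F letters were in 0.493% and 0.974% of windows and the CRE in 1.83%. None of these letters was found in the Cdkn1a window, which says only that they are not in it.

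For Mki67 and Cdk1, the 30 upstream bases with the most letters in CHR and CCAAT matches are printed, with these letters in capitals (ATTGG is CCAAT on the other strand). The Mki67 stretch is chr1:199952683-199952712 on the minus strand, from 119 to 90 bases before the start, and the Cdk1 stretch is chr20:19265197-19265226 on the plus strand, from 96 to 67 bases before the start. In the Mki67 stretch the last TTTGAA and the ATTGG share 1 base, and a GC box match begins within the last 2 bases.
Mki67: aaTTTGAAccgccgttttcgTTTGAATTGG
Cdk1: cttagctcggctctgATTGGctccTTTGAA
Both stretches hold a CHR and a CCAAT match on the strand that reads ATTGG, and such matches describe the letters only. Mki67 was counted in all 12 libraries and Cdk1 in none, but whether transcripts of Cdk1 were in the reference was not tested.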

How the data were processed

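The authors ran Salmon with GC correction against the Rnor_6.0 transcriptome and made gene values with tximport in its length-scaled mode. The deposited files hold estimated counts by gene and, for each library, estimated counts, TPM, annotated length and effective length per transcript. The sequencing run, a covariate of the study, is given in no sample label and was not used here.

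Gene counts were rounded and tested with edgeR 4.0.16 (TMM, filterByExpr minimum count 10, robust glmQLFit, all 12 libraries in 1 fit of 3 groups) in R 4.3.3, with Benjamini-Hochberg adjustment over 10997 genes and a threshold of 0.05. Alternatives used limma 3.58.1, sva 3.50.0 and DESeq2 1.42.0, and the edgeR procedure was tested on simulated data. Ratios had 0.5 counts added to both genes, and exact permutation tests used scipy 1.17.1. Log2 CPM for correlations used a prior count of 2. Transcript rows were matched to gene rows within 0.01 on the log2 scale; of 1000 gene rows with at least 50 counts in every library, 748 matched a single transcript row, 0 matched more than 1 and 252 matched none. Chi-square over degrees of freedom was 16.5 to 199 between libraries of a group, beyond counting noise, so no pair was treated as 1 library deposited in duplicate. This does not show that the cultures were separate. The value was lowest for vehicle libraries 1 and 3 (16.5) and NRG1 libraries 6 and 8 (16.9). It was highest for EF-1 libraries 10 and 12 (199). Whether these differences follow the sequencing run was not tested.

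The members and lists were chosen with earlier results of these data known. Besides the members, the gene most alike to each by Pearson's r was named. The name table used here (GRCr8) gave no Ensembl identifiers, so lists of other cell cycle genes, ERBB genes and cell type markers were not run. The ratio of Mki67 to Cdkn1a replaced ratios with Cdk1.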

Additional observations from a re-analysis of the deposited data

Results flagged for a closer look

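Cdkn1a was at 104 CPM in EF-1 library 9, whereas the other EF-1 libraries lay between 82.8 and 86.2 CPM. Its gap to the nearest of them took up most of the group's range. Among the 15 groups of values looked at in this way, chance alone gives such a gap in about 1 of 20, and the cause was not tested. Without this library the log2 fold change of Cdkn1a in EF-1 vs vehicle was -0.23 (edgeR).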

How the results depend on the processing

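Of 180 alternative values of the member fold changes, 20 for each of 9 results, 177 kept their direction and their side of the threshold, 3 passed it newly and 0 reversed. The NRG1 vs vehicle and EF-1 vs NRG1 calls held in all 20. In EF-1 vs vehicle, Ccnd1 passed with DESeq2 (0.90) and without EF-1 library 12, and ranged from 0.63 (without EF-1 library 10) to 1.06 with single libraries left out. Mki67 passed without EF-1 library 12 and ranged from -0.72 to -0.39 (without vehicle library 2). The number of genes called in EF-1 vs vehicle was 3 with edgeR, 5 with library size only, 175 with DESeq2, 1 with only the compared groups, 6 with 1 surrogate variable, 0 with limma-voom (2064 at an unadjusted p under 0.05) and 0 with edgeR on transcript reads (2443 at an unadjusted p under 0.05). With edgeR and single libraries left out it ranged from 0 (994 to 2985 at an unadjusted p under 0.05) to 3207, the latter without EF-1 library 12. In that last fit every EF-1 library had a lower length ratio and a lower length slope than every vehicle library. For EF-1 vs NRG1 the number of genes called was 4596, and 3019 with 1 surrogate variable. These causes were not tested. With 1 library left out, the permutations of 4 against 3 libraries are too few to pass the adjusted threshold, which says nothing of stability. The ratio of Ccnd1 to Cdkn1a then ranged from 2.54 to 2.86 for NRG1 vs vehicle, from 0.76 to 1.16 for EF-1 vs vehicle and from -1.93 to -1.53 for EF-1 vs NRG1. That of Mki67 to Cdkn1a ranged from -2.49 to -2.11 for NRG1 vs vehicle, from -0.55 (without EF-1 library 12) to -0.23 (without vehicle library 2) for EF-1 vs vehicle, where no setting passed, and from 1.76 to 2.13 for EF-1 vs NRG1. Other pseudocounts and transcript reads changed no call of these ratios. With Spearman's rho in place of Pearson's r, Ccnd1 and Cdkn1a had 0.50 and Mki67 and Cdkn1a -0.56. Transcript reads and the Mki67 to Cdkn1a ratio were chosen after the data had been seen. Libraries were not paired or blocked, because each has a number of its own and no label gives the sequencing run.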
